A study of Homo sapiens with 3 samples.

Results

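Potassium channel genes were described in RNA-seq data from blood-forming differentiation of H1, an established line of human embryonic stem cells. Members were all rows whose gene symbol begins with KCN, goes on in letters and ends in a number, which gave 94 of the 18345 genes in the deposited tables. Of these, 21 reached 1 FPKM (a read count divided by transcript length and library depth) in at least 1 library, and 73 did not. What was sequenced were CD31+CD34+ cells, HEPs by their labels, that sorting had divided by surface CD105 (endoglin) into fractions labelled negative, low and high, here CD105neg, CD105low and CD105high. All 3 populations came from the same culture scheme, with 40 ng/ml of activin A plus 50 ng/ml of BMP4 during 2 days, then 40 ng/ml of VEGF plus 50 ng/ml of bFGF during 3 days, and carry the label of day 4. Each population had 1 library, so no difference below has a replicate check, an error or a p-value, and every comparison is one of libraries. H1 is 1 line, which limits what the groups stand for.

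Potassium channels let potassium ions leave or enter a cell through a selective pore and so set the resting membrane potential. Voltage-gated channels open on depolarisation, inward rectifiers and tandem-pore channels carry resting currents, and calcium-activated channels open when cytosolic calcium rises. Auxiliary subunits and so-called silent subunits form no functional pore alone and change the gating or location of pore-forming partners. In endothelial cells, inward rectifier and calcium-activated channels are known for setting the driving force for calcium entry. KCNH2 encodes the hERG channel, known for repolarising the heart, and is also found in blood progenitors and leukaemic cells.

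Among the 21 members that reached 1 FPKM, KCNH2 and KCNJ2 had the largest fold changes between CD105high and CD105neg on the scale of FPKM plus 1, and their promoters are shown for that reason, as RefSeq gives them on build GRCh38.p14, from 250 bases before to 50 bases after the gene start. KCNH2 lies on the minus strand at chr7:150978272-150978571 and KCNJ2 on the plus strand at chr17:70169282-70169581. Capitals mark the matches, on either strand, to the GC box GGGCGG and to the CCAAT box (CCAAT, or ATTGG on the other strand).
KCNH2: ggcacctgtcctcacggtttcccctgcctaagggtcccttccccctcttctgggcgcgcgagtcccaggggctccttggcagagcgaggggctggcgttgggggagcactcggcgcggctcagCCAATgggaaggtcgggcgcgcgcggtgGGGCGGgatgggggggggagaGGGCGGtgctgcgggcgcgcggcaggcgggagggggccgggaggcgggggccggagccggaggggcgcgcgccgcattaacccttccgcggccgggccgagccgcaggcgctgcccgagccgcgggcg
KCNJ2: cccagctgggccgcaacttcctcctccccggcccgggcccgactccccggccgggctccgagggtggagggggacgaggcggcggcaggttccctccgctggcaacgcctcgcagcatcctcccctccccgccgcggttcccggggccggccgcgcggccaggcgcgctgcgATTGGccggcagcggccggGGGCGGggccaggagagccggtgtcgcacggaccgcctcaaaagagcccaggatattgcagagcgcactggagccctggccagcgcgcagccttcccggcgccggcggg
Both windows held 39 CG dinucleotides, against a median of 14 over 35116 promoters of the same length, of which 8.71% held as many or more. The KCNH2 window had 2 GC boxes and the KCNJ2 window 1, and each had 1 CCAAT box. A GC box occurred in 45.0% and a CCAAT box in 34.6% of all promoters. The letters TATAAA (11.5% of all promoters), AGATAA (10.3%) and CCGGAAG (10.3%) were in neither window. By these letters the promoters of the pair looked alike, and the windows of KCNK5 and KCNC4 held 39 and 41 CG dinucleotides. Any part of the promoters in the levels was not tested. Promoters were matched by symbol for 70 of the 94 members, and 12 of the 70 held at least 39 CG dinucleotides.

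The values summed to 289229, 284824 and 265618 FPKM over all genes in CD105neg, CD105low and CD105high, and 11343 genes (61.8%) reached 1 FPKM in some library. ENG, the gene of CD105 itself, followed the order of the sort, with 2.12, 8.56 and 13.8 FPKM in the same 3 libraries. The header over the values of the CD105neg library reads CD105 positive, against its sample labels; the labels were followed, and its ENG level was the lowest of the 3. No label or header names the unit, which was taken as FPKM and could not be told apart from TPM that was rescaled or filtered by gene. How many reads each library had was not given, so values carry no counting interval. The lowest values of genes with 1 transcript were spaced at about 0.0128, 0.0117 and 0.0127 FPKM times kilobases. If the unit is FPKM, this puts CD105low at 1.09 times and CD105high at 1.01 times the depth of CD105neg. Each spacing was the best of many tried. Only 52.6%, 50.8% and 50.4% of the values in CD105neg, CD105low and CD105high fell within 0.08 of a step, against 10.7%, 13.7% and 12.1% at the median spacing tried. The depths are therefore rough. At 3.756 kilobases, the median length of the longest transcripts of the 21 genes, 1 such step is worth 0.00341, 0.00312 and 0.00337 FPKM.

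As a family, potassium channel genes were present at low levels in all 3 populations. Their summed level was 104 FPKM in CD105neg cells, 100.4 FPKM in CD105low cells and 95.7 FPKM in CD105high cells, which was 0.0360%, 0.0353% and 0.0360% of the sum over all genes. The sum was therefore an almost fixed share of the total. Of the members, 33 reached 0.5 FPKM, 7 reached 5 FPKM and 4 reached 10 FPKM in some library. Only 22.3% of members reached 1 FPKM, against the 61.8% of all genes. In single libraries, 20, 17 and 16 members stood at or above 1 FPKM in CD105neg, CD105low and CD105high. Of the 21, 15 did so in all 3 libraries, and KCNF1, KCNIP2, KCNJ4, KCNJ8, KCNJ11 and KCNK17 did so in 1 or 2, so these 6 entered through the libraries in which they are high. The other 73 included 62 with a value above 0 somewhere and 11 listed at 0 in all 3 libraries, among them KCNK2, KCNT1 and KCNMB2, which were chosen for naming after their values were seen.

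**Figure D1:**
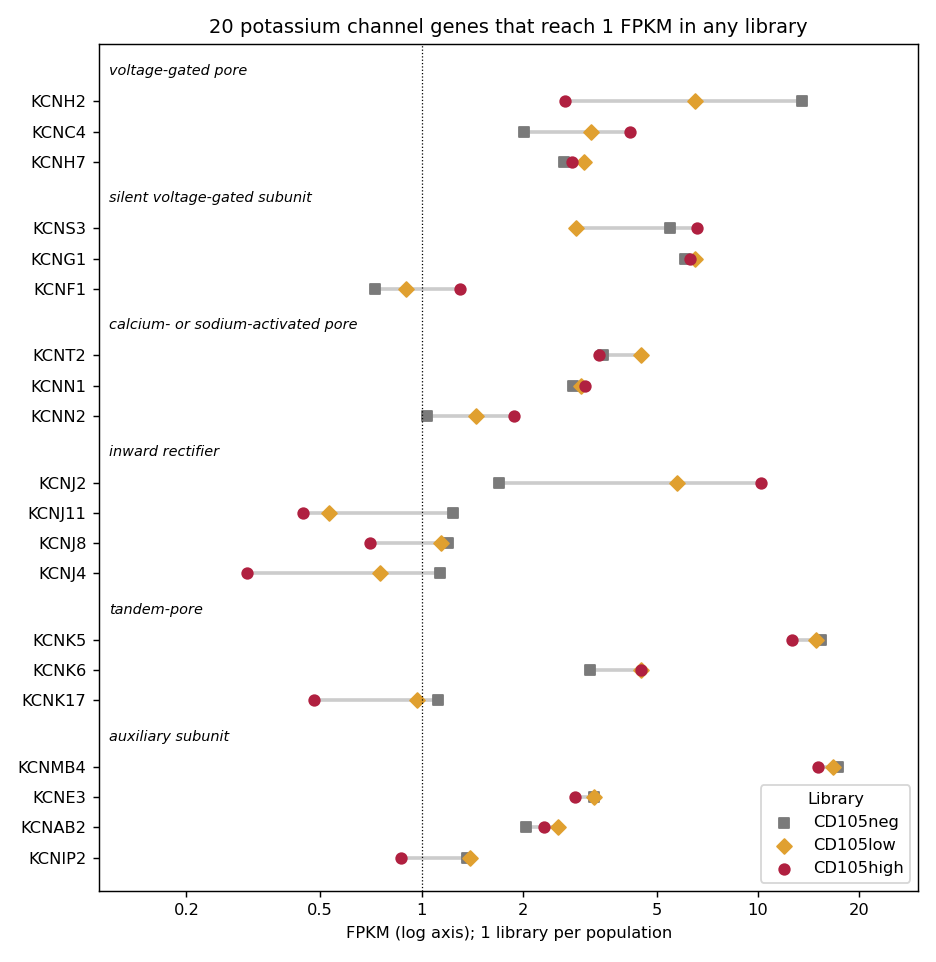
FPKM (log axis) of 20 of the 21 potassium channel genes that reached 1 FPKM in any library, grouped by class, with 1 point per library and a grey bar spanning the 3 points; the dotted line is at 1 FPKM. KCNH2 and KCNJ2 have long bars with the libraries in opposite order, while KCNMB4 and KCNK5 are the highest genes and hold 3 points close together.

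KCNH2 (ENSG00000055118.14), a voltage-gated pore, had 13.5 FPKM in the CD105neg library, 6.50 FPKM in the CD105low library and 2.66 FPKM in the CD105high library. The level was lower at each step of the sort, and CD105high held 0.197 times the level of CD105neg. Among the 94 members KCNH2 ranked 3 in CD105neg, 4 in CD105low and 12 in CD105high. On the scale of the value plus 1, used for all fold changes and smaller than the plain ratio for low genes, its log2 fold change was -1.98 between CD105high and CD105neg, -0.95 between CD105low and CD105neg, and -1.03 between CD105high and CD105low. Only 13 of the 11343 genes that reached 1 FPKM had a lower value in the widest of these comparisons, where KCNH2 was in place 14 from the bottom. KCNH2 was singled out within the family with its difference in these libraries already known, so these figures are a description. Its sequence was nearly its own, with 0.69% of sampled pieces found in other genes, and no exon of another gene in GENCODE release 29 overlapped it.

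KCNJ2 (ENSG00000123700.4), the classical inward rectifier that holds the resting potential near the potassium equilibrium, ran the other way. It had 1.70 FPKM in the CD105neg library, 5.76 FPKM in the CD105low library and 10.2 FPKM in the CD105high library. CD105high held 6.004 times the level of CD105neg, and the gene ranked 14, 5 and 3 among the members in CD105neg, CD105low and CD105high. The log2 fold change was 2.05 between CD105high and CD105neg, 1.32 between CD105low and CD105neg, and 0.73 between CD105high and CD105low. In the first of these it was in place 26 from the top of the 11343 genes. The level of KCNH2 divided by that of KCNJ2 was 7.93 in CD105neg, 1.13 in CD105low and 0.261 in CD105high. The pair thus changed places across the sort. They are the members with the lowest and the highest log2 fold change between CD105high and CD105neg in these same libraries. Their opposite order is therefore a description that follows from that choice. Their sum was 15.2, 12.3 and 12.9 FPKM in CD105neg, CD105low and CD105high. Exons of the antisense gene KCNJ2-AS1 overlap 3.32% of the exonic bases of KCNJ2, and the library kit does not mark strand, so reads of that stretch cannot be assigned.

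**Figure D2:**
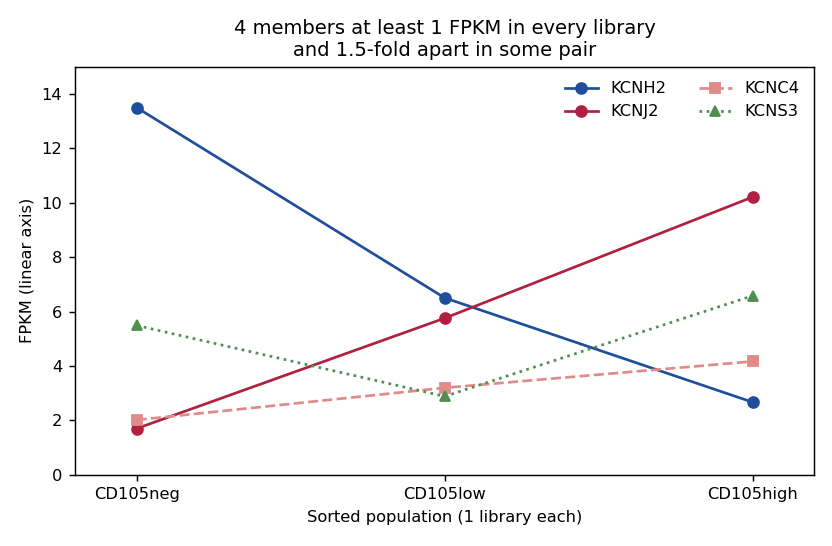
FPKM (linear axis from 0) of 4 potassium channel genes that were at or above 1 FPKM in every library and at least 1.5-fold apart in some pair, in the CD105neg, CD105low and CD105high libraries, 1 point each. KCNH2 is lower and KCNJ2 and KCNC4 higher at each step of the sort, and KCNS3 is lowest in CD105low at 2.88 FPKM.

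For CD105high against CD105neg, 4 of the 21 members (19.0%) were at least 1.5-fold lower, where 6.88% of the 11343 genes were, and 2 (9.52%) were at least 1.5-fold higher, where 5.65% of genes were. With so few members, 1 gene moves a share by nearly 5 points, and the split became 3 higher and 3 lower once fold changes were centred on the median gene. Among those lower were KCNH2, KCNJ4 and KCNJ11, and those higher were KCNJ2 and KCNC4. In all 6, CD105low lay between the other libraries. Of all genes, 6.22% were lower and 4.95% higher with CD105low between, which is 705 of the 780 lower and 562 of the 641 higher ones, so this order was the usual one. At 2-fold, KCNH2 was lower, where 1.31% of genes were, and KCNJ2 higher, where 1.89% were. The median log2 fold change of the 21 was -0.04, beside -0.09 for all genes. Of the 73 genes under 1 FPKM, 1 was 1.5-fold apart on this scale, KCNAB1. Among the 8117 genes whose highest value lay from 1 to under 20 FPKM, the range in which all 21 members fall, 6.69% were lower and 5.21% higher. These members also entered the fold comparison partly by their level in CD105neg, so the count is a description.

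For CD105low against CD105neg, KCNJ2 alone was at least 1.5-fold higher (4.13% of all genes were) and KCNH2 and KCNS3 were lower (2.18% of genes). For CD105high against CD105low, KCNJ2 and KCNS3 were higher (1.18% of genes) and KCNH2 was lower (2.19% of genes). With a pseudocount of 5 in place of 1, KCNS3 was 1.5-fold apart in neither comparison, and KCNJ2 not in CD105high against CD105low. The medians of the members, 0.01 and -0.10, equalled those of all genes at 0.02 and -0.10 to within 0.01. At 2-fold, KCNJ2 was higher (0.996% of genes) and no member lower (0.361%) in CD105low against CD105neg, while KCNH2 was lower (0.379%) and no member higher (0.273%) in CD105high against CD105low. Among genes from 1 to under 20 FPKM, 3.59% were higher and 2.16% lower in CD105low than in CD105neg, and 1.1% higher and 2.11% lower in CD105high than in CD105low. The 3 comparisons share libraries, so they are not separate evidence. In total 7 of the 21 genes were 1.5-fold apart in some pair and 14 in none, on the scale of FPKM plus 1.

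**Figure D3:**
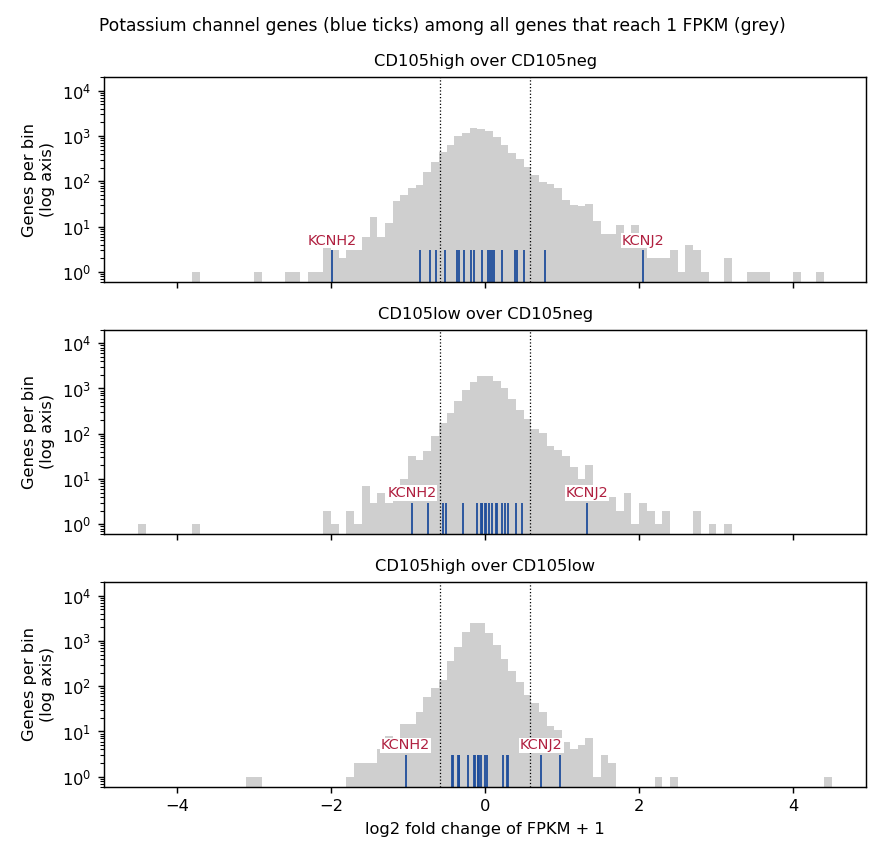
Log2 fold changes of FPKM + 1 for the 3 pairs of libraries. Grey bars count all 11343 genes that reached 1 FPKM (log axis, bins of 0.1 and end bins holding anything beyond), blue ticks are the 21 potassium channel genes, and dotted lines mark 1.5-fold; most ticks sit in the centre and KCNH2 and KCNJ2 lie in opposite tails of the top panel at -1.98 and 2.05.

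Of the 29 genes for voltage-gated pores, 4 reached 1 FPKM. The sum of all 29 was 27.6 FPKM in CD105neg cells, 20.9 FPKM in CD105low cells and 16.7 FPKM in CD105high cells. Without KCNH2 it was 14.1, 14.4 and 14.1 FPKM, so the sum of the other genes stayed almost level. KCNC4 (ENSG00000116396.14), a pore of the Shaw group, stood at 2.02, 3.197 and 4.17 FPKM in CD105neg, CD105low and CD105high. Its log2 fold change was 0.78 for the ends of the sort, and it had the order of KCNJ2. KCNH7, a relative of KCNH2 in the ERG group, stood at 2.64, 3.04 and 2.80 FPKM and did not share the order of KCNH2. Of the KCNA and KCND genes, none reached 1 FPKM; KCND1 had the highest value in any single library, at 0.424, 0.853 and 0.742 FPKM.

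Among the 10 silent subunits, which join other voltage-gated pores to form channels, 3 reached 1 FPKM. KCNG1 (ENSG00000026559.13) had 6.06 FPKM in CD105neg cells, 6.52 FPKM in CD105low cells and 6.26 FPKM in CD105high cells, all within 0.5 FPKM of each other. Of its sampled sequence 10% occurs in other genes and 7.98% of its exonic bases are overlapped by AL050404.1 on the other strand, so its level is less certain. KCNS3 (ENSG00000170745.11) stood at 5.49, 2.88 and 6.58 FPKM, and was the only one of the 7 genes at least 1.5-fold apart in some pair whose CD105low value lay outside the other libraries. KCNF1 stood at 0.728, 0.898 and 1.30 FPKM. These 3 summed to 12.3, 10.3 and 14.1 FPKM in CD105neg, CD105low and CD105high.

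Of the 8 calcium- or sodium-activated pores, 3 reached 1 FPKM and none of them was 1.5-fold apart in any pair. KCNT2, a sodium-activated channel, had 3.47 FPKM in CD105neg cells, 4.50 FPKM in CD105low cells and 3.36 FPKM in CD105high cells. The small-conductance calcium-activated channel gene KCNN1 stood at 2.82, 2.98 and 3.06 FPKM. Its relative KCNN2 stood at 1.04, 1.45 and 1.89 FPKM, a log2 fold change of 0.50 for CD105high against CD105neg, which passed 1.5-fold only after centring or with a pseudocount of 0.1. KCNN3, one of the small-conductance channels described in endothelium, stayed at or below 0.464 FPKM. KCNN4, the calcium-activated channel of red cells and endothelium, stayed at or below 0.0349 FPKM in every library. KCNN3 and KCNN4 were named after their values were seen.

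Inward rectifiers showed a shift within the class. Of 16 genes, 4 reached 1 FPKM, and the class sum was 7.41 FPKM in CD105neg cells, 10.1 FPKM in CD105low cells and 13.2 FPKM in CD105high cells. KCNJ2 made up 22.9%, 57.0% and 77.6% of that sum, and without it the sum ran the other way, at 5.71, 4.34 and 2.95 FPKM. KCNJ4 (ENSG00000168135.4), a strong inward rectifier of the same subfamily as KCNJ2, stood at 1.14, 0.752 and 0.303 FPKM, with exons of Z97056.1 over 12.6% of its exonic bases on the other strand. KCNJ11 (ENSG00000187486.5) and KCNJ8 (ENSG00000121361.3) encode the pores of channels closed by ATP. KCNJ11 stood at 1.24, 0.530 and 0.445 FPKM. KCNJ8 stood at 1.197, 1.14 and 0.701 FPKM, with exons of AC010185.1 over 10.8% of its exonic bases on the other strand. Both were lowest in CD105high. Of their sulfonylurea receptor partners, both under 1 FPKM, ABCC9 stood at 0.314, 0.501 and 0.618 FPKM and ABCC8 at 0.0346, 0.0103 and 0.0252 FPKM.

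**Figure D4:**
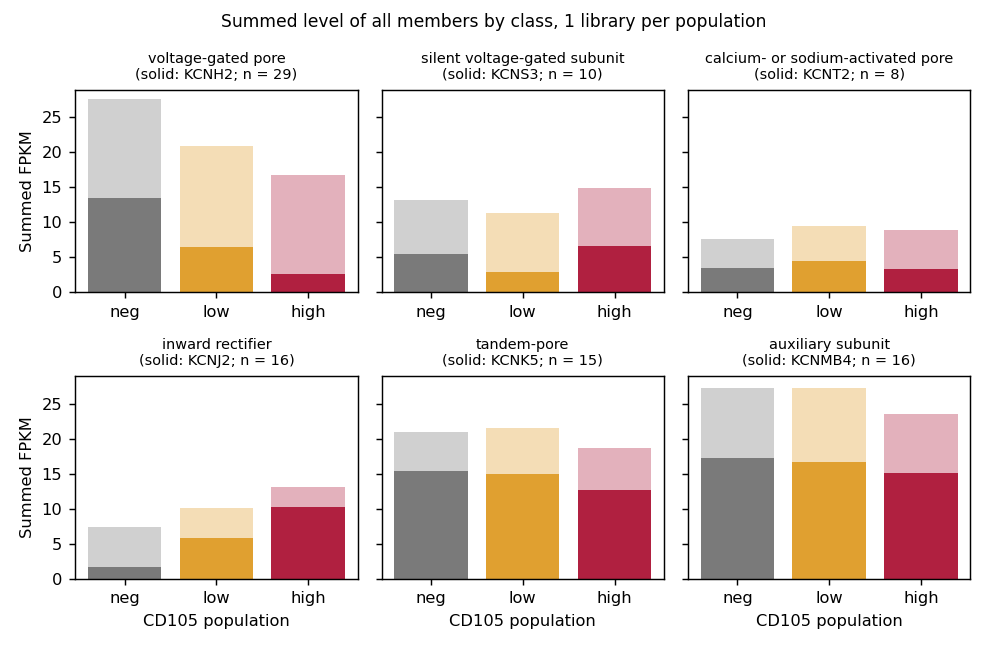
Summed FPKM of all 94 members by class in the CD105neg, CD105low and CD105high libraries (bars from 0, 1 library each); the solid part is 1 gene per class, the one with the highest value in any single library, and the pale part the rest. The pale part of the voltage-gated pores stays near 14 FPKM while KCNH2 shrinks, and KCNJ2 fills most of the inward rectifier bar in CD105high.

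Tandem-pore channels, which carry leak currents, summed to 21.0, 21.5 and 18.6 FPKM in CD105neg, CD105low and CD105high. Of 15 genes, 3 reached 1 FPKM and none was 1.5-fold apart in any pair on the scale of FPKM plus 1. KCNK5 (ENSG00000164626.8), a leak channel sensitive to external pH, had 15.4 FPKM in CD105neg cells, 14.9 FPKM in CD105low cells and 12.6 FPKM in CD105high cells, and ranked 2 among the members in each library. KCNK6 stood at 3.18, 4.50 and 4.48 FPKM and KCNK17 at 1.12, 0.968 and 0.478 FPKM. With a pseudocount of 0.1, KCNK17 was more than 1.5-fold lower in CD105high than in CD105neg (log2 fold change -1.08) and CD105low (-0.89). KCNK1 was under the limit in every library, at 0.805, 0.613 and 0.361 FPKM.

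The auxiliary subunits held the member with the highest level. KCNMB4 (ENSG00000135643.4), a beta subunit of the large-conductance calcium-activated channel, had 17.3 FPKM in CD105neg cells, 16.7 FPKM in CD105low cells and 15.1 FPKM in CD105high cells, and ranked 1 in each. The pore it is known to join, KCNMA1, looked up after these values were seen, stood at 0.0425, 0.221 and 0.0833 FPKM. The RNA of that pore was thus low beside the RNA of the subunit, and these data hold no protein levels. KCNE3, a partner of KCNQ1, stood at 3.26, 3.25 and 2.87 FPKM beside KCNQ1 at 0.166, 0.289 and 0.593 FPKM. Exons of AP001372.3 overlap 16.6% of KCNE3 on the other strand. KCNAB2, which binds KCNA pores, stood at 2.04, 2.54 and 2.31 FPKM, with all KCNA genes together at 0.801, 1.07 and 1.28 FPKM. KCNIP2, which binds KCND pores, stood at 1.37, 1.39 and 0.871 FPKM, with the 3 KCND genes at 0.779, 1.01 and 0.866 FPKM. Exons of KCNIP2-AS1 overlap 12.2% of the exonic bases of KCNIP2 on the other strand. Of 16 auxiliary genes 4 reached 1 FPKM and none of these was 1.5-fold apart on the scale of FPKM plus 1. With a pseudocount of 0.1, KCNIP2 was more than 1.5-fold lower in CD105high than in CD105neg (log2 fold change -0.60) and CD105low (-0.62). The nearest below 1 FPKM were KCNMB3 (0.689, 0.914 and 0.648 FPKM), KCNAB1 (0.898, 0.352 and 0.165 FPKM) and KCNE5 (0.456, 0.528 and 0.666 FPKM), against KCNK17 and KCNJ4 just above it at 1.12 and 1.14 FPKM. Of the sampled sequence of KCNMB3 46.7% occurs in other genes, and PIK3CA overlaps 37.9% of its exonic bases on the other strand. The level of KCNMB3 is therefore less certain.

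Lists of cell type markers were set beside these genes, and the part of such cells in the results was not tested. In bulk samples, fewer cells of a type and less RNA per cell cannot be told apart. At 1.5-fold, 6.88% of the 11343 genes that reached 1 FPKM were lower and 5.65% higher in CD105high than in CD105neg. Beside KCNH2, all 11 erythroid and megakaryocyte markers that reached 1 FPKM, of 21 fixed, were lower by 1.5-fold or more in that comparison. The list summed to 85.3, 33.5 and 17.0 FPKM in CD105neg, CD105low and CD105high, with SLC4A1 at 0 in each library. Beside KCNJ2, 12 of 15 endothelial markers were higher and none lower, with sums of 1543, 2169 and 2297 FPKM. The gate genes ENG, PECAM1 and CD34 were all higher, with sums of 53.0, 89.6 and 107.1 FPKM. ENG encodes CD105, by which the cells were divided, so its order follows the sort and is no separate evidence.

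KCNH2 is best known from the heart. The counts that follow are again for CD105high against CD105neg, where 6.88% of all genes were lower and 5.65% higher. In the cardiac and smooth muscle list, 2 of the 6 markers that reached 1 FPKM, of 14, were lower and none higher. That list summed to 132.7, 118.4 and 85.9 FPKM in CD105neg, CD105low and CD105high. The myosin light chain gene MYL4 had the order of KCNH2, with 10.9 FPKM in CD105neg cells, 3.31 FPKM in CD105low cells and 1.83 FPKM in CD105high cells (log2 fold change -2.07 for CD105high against CD105neg). TAGLN, of smooth muscle, was the other one lower, at 77.5, 66.1 and 41.9 FPKM. MYL7 stood at 5.39, 6.02 and 3.33 FPKM and ACTC1 at 7.16, 7.82 and 5.16 FPKM, neither 1.5-fold apart at the ends of the sort, while MYH6 and TNNT2 stayed at or below 0.585 and 0.0813 FPKM in every library. KCNJ8 marks pericytes in mouse tissue, and in the mesenchymal and mural list 4 of 8 markers were lower and 1 higher (sums of 421.9, 424.6 and 377.5 FPKM), with PDGFRB at 9.05, 4.99 and 2.74 FPKM and RGS5 at 114.1, 124.4 and 111.3 FPKM. Of the neural markers none of 3 that reached 1 FPKM was 1.5-fold apart (sums of 20.3, 16.0 and 15.4 FPKM). In the pluripotency list 1 of 6 was lower (sums of 103.7, 95.2 and 84.8 FPKM). In the leukocyte list 1 of 2 was lower (sums of 6.22, 5.65 and 4.37 FPKM), with MPO and CD3E at 0 in every library.

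Genes that work with potassium channels were counted by the same rule for CD105high against CD105neg, where 5.65% of all genes were higher and 6.88% lower. Of 18 channel partners outside the name pattern 7 reached 1 FPKM, of which 1 was higher and 1 lower. The one higher was DPP6, a partner of KCND pores, at 0.598, 1.10 and 1.95 FPKM. The partner DPP10 and the mitochondrial porin VDAC1 were not 1.5-fold apart, at 3.24, 2.51 and 2.33 FPKM and at 111.4, 92.0 and 84.6 FPKM. Of 22 genes of the sodium-potassium pump and potassium cotransport 13 reached 1 FPKM, with 1 higher and 1 lower. SLC12A2, which brings potassium in with sodium and chloride, was higher in CD105high, at 8.83, 12.02 and 16.1 FPKM across the sort. The beta subunit ATP1B3 of the pump was lower, at 36.03, 40.002 and 22.6 FPKM, while the pump subunit ATP1B1 (23.2, 29.8 and 32.7 FPKM) and the cotransporter SLC12A4 (14.9, 11.9 and 11.1 FPKM) were not 1.5-fold apart.

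Calcium entry and release genes lie upstream of calcium-activated channels. Of 25, 23 reached 1 FPKM. Where 5.65% of all genes were higher and 6.88% lower in CD105high than in CD105neg, 4 of the 23 were higher and 1 lower. Among those higher, the inositol trisphosphate receptor gene ITPR3 had 2.51 FPKM in CD105neg cells, 5.46 FPKM in CD105low cells and 5.82 FPKM in CD105high cells, and the store-operated channel gene ORAI3 stood at 3.19, 7.24 and 6.51 FPKM. ATP2A3, a calcium pump of blood cells and endothelium, was lower, at 19.4, 13.2 and 9.40 FPKM. Of 24 other voltage-gated channel genes, 12 reached 1 FPKM, with 1 lower and none higher. The one lower was the T-type calcium channel gene CACNA1H, at 3.56, 2.80 and 1.79 FPKM. CACNA2D2 (2.83, 2.45 and 1.61 FPKM), SCN3B (1.61, 3.71 and 2.77 FPKM) and the proton channel gene HVCN1 (3.92, 8.04 and 5.88 FPKM) were not 1.5-fold apart at the ends of the sort. The medians of these 4 lists, -0.05, -0.23, 0.10 and 0.19, lay on both sides of the -0.09 of all genes.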

How the data were processed

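The authors deposited 1 value per gene and library. No label or header says in which unit. The deposited numbers were taken as FPKM, from which TPM rescaled or filtered by gene could not be told apart. RSEM, BWA and Bowtie, and the build hg19, are listed per the submitters' processing notes with no version, role or order, and the filters and the annotation behind them were not given. Per the labels' protocols, 2 ug of RNA went into each library, made with a TruSeq RNA kit that keeps no strand information. The header of the CD105neg value column says CD105 positive, and the group of that library was taken from the sample's labels.

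Log2 fold changes used a pseudocount of 1, and genes at or above 1 FPKM in any library were counted as higher or lower at 1.5-fold, with Python 3.11.15 and pandas 2.3.3. The counting code was run on simulated fold changes without noise, made on the same scale. Such a run checks the code and lends no weight to the counts reported. Named are all members that reached 1 FPKM, the 5 nearest below it, and up to 4 genes of each related list, taken by the size of the log2 fold change between CD105high and CD105neg; of the cell marker lists, counts and sums are given with examples. A few genes that this rule names enter the counts and sums and are not reported here. Members and lists were chosen with earlier results of these data known. All 94 members matched GENCODE release 29 by identifier, and 50-base pieces every 40 bases of their transcripts were searched on both strands in other genes. That annotation is on another build than hg19, and only the RefSeq promoters carry coordinates. Promoter motifs and the background of genes from 1 to under 20 FPKM were chosen after the data were seen.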

Additional observations from a re-analysis of the deposited data

How the results depend on the processing

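No paired analysis was possible because each population had 1 library and no result comes from a test; for the same reason no library could be left out. KCNH2 stayed lower and KCNJ2 higher by at least 1.5-fold in CD105high than in CD105neg under both other pseudocounts, centring and scaling, with log2 fold changes from -2.30 to -1.27 and from 1.18 to 2.52. The counts of the other members depend on the pseudocount. For CD105high against CD105neg, 4 were higher and 7 lower with a pseudocount of 0.1, and 1 and 1 with 5. Called there with 0.1 but not with 1 were KCNN2 and KCNF1, higher, and KCNK17, KCNJ8 and KCNIP2, lower. For CD105low against CD105neg, 2 were higher and 4 lower with 0.1, and 1 was lower with 5. For CD105high against CD105low, 5 were lower with 0.1, and 0 were higher with 5. Called lower there with 0.1 but not with 1 were KCNK17, KCNJ8, KCNIP2 and KCNJ4. At 2-fold, 1 was higher and 1 lower for CD105high against CD105neg, 0 were lower for CD105low against CD105neg and 0 were higher for CD105high against CD105low. Among the calls made with a pseudocount of 1 but not with 5 were KCNC4, KCNJ4 and KCNJ11 for CD105high against CD105neg, KCNS3 for CD105low against CD105neg, and KCNJ2 and KCNS3 for CD105high against CD105low. KCNJ11 was also no longer 1.5-fold apart after centring or scaling. The number of members reaching the filter was 33 at 0.5 FPKM and 7 at 5 FPKM. At 5 FPKM, 1 was higher and 2 lower for CD105high against CD105neg, and the median was -0.19 in place of -0.04, since fewer genes enter. The other settings, which were no filter, equal library sums and leaving out KCNG1 for shared sequence, kept each count within 1.5 times and each median within 0.1. No member 1.5-fold apart changed direction under any setting of pseudocount, centring or scaling.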
